A study of Drosophila melanogaster with 2 samples.

Results

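The 8 genes of the Drosophila Hippo pathway hpo, sav, wts, mats, yki, ex, Mer and kibra were chosen by name from 13945 protein-coding genes on the 6 chromosome arms that carry peaks. The peaks come from chromatin immunoprecipitation and sequencing (ChIP-seq) of whole embryos aged 0 to 16 hours, of pooled sex, from 1 stable transgenic line in which CG9437 (hng1, a MADF-BESS domain gene) carries GFP at the C terminus. The 2 biological replicates form 1 group, with no second genotype, treatment or stage, and the manifests name 1 control alignment used for both. The labels do not state which promoter drives the fusion gene. The description field calls both libraries input controls, while their assay and antibody fields describe a transcription factor ChIP, and they are treated here as ChIP. The peak lists carry no read numbers, so depth is unknown. Peak lists hold no expression values, so tissue makeup was not checked.

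The Hippo pathway limits organ growth through a chain of kinases. The kinase Hpo with its scaffold Sav activates the kinase Wts with its partner Mats, and Wts keeps the co-activator Yki out of the nucleus. Mer, Ex and Kibra act upstream at the apical cell cortex. When Yki is nuclear it works with DNA-binding partners such as Scalloped, and ex and kibra are themselves known Yki targets in imaginal discs.

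Each list was read for summits that lay within 500 bp of any transcription start site (TSS) of a member, or inside the gene extended by 2 kb on both sides. Of 30000 candidate regions called on the pooled replicates, 58 had such a summit, and 14 of these were among the 6091 peaks of the authors' final list, which was filtered on irreproducible discovery rate. Signal is the authors' value for a peak and is ranked within its own list. It is not scaled between lists, so a ratio of replicate 1 to replicate 2 signal is read only against the same ratio at all final peaks, whose median was 1.17. The final list holds the 6091 pooled candidates of highest signal, down to 148. Among the 14 final summits at the members, signal ran from 152 to 788 with a median of 209.9, against a median of 258 over the final list.

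The promoter regions of the 8 genes ranged widely in height, with yki and Mer above the others. All 8 members had a pooled candidate at a promoter, against 50.6% of protein-coding genes. Final promoter summits were found for yki and Mer only, 2 of 8, against 25.2% of all protein-coding genes and 49.8% of those with a promoter candidate. That count is near the share of all genes, and nothing is read from it about the members. The strongest promoter summit of each member had a median signal of 125 over the 8, and the corresponding median over 7055 genes with a candidate was 147. A final summit anywhere in the extended gene was present for 7 of 8, all except sav, against 41.4% of protein-coding genes. For hpo, mats and yki these summits lay at promoters of other genes, shared in the case of yki, and in the gene body alone the count was 4 (wts, ex, Mer and kibra). Gene length bears on that number, since kibra, ex and wts span 26.6, 17.5 and 17.0 kb while the other members span 2.14 to 3.80 kb.

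**Figure D1:**
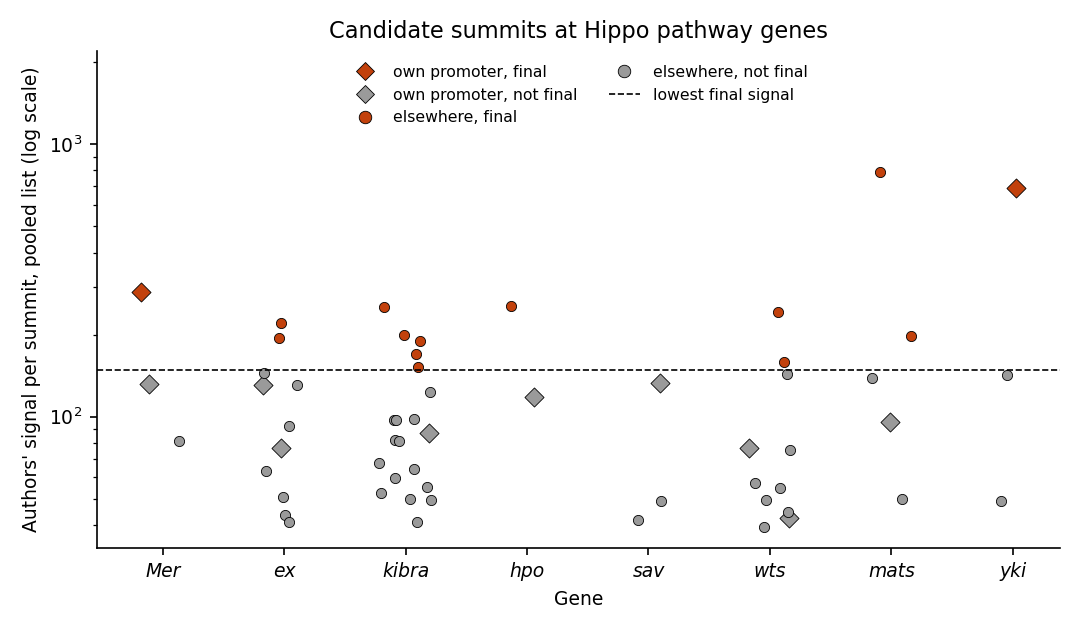
Signal (pooled list, log scale) of each of the 58 candidate summits by gene. Diamonds lie within 500 bp of the gene's own TSS, circles elsewhere in the extended gene, and red marks the 14 final summits above the dashed line at 148; red diamonds occur for Mer and yki.

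Mer, the FERM-domain orthologue of Merlin, had the clearest promoter peak that belongs to a member alone. Its final summit had a pooled signal of 286 at rank 2621, with 146 (rank 2927) in replicate 1 and 136 (rank 2684) in replicate 2. It lay at 102 bp downstream of the TSS, in intron 1 of 4, and no other gene has a TSS within 500 bp of it. The 2 replicates placed it within 2 and 19 bp of the pooled summit. A weaker neighbour at -134 bp (upstream) had 131 at rank 6972, with 54.6 and 75.5 in replicates 1 and 2, and was not final. Mer is on chromosome X at 19689697 to 19693500 of dm6, minus strand.

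The FERM-domain gene ex (2L, 431227 to 448701, plus strand) had its final summits far inside the gene. At the TSS, candidates at -185 and 39 bp had signals of 131 and 76.5, both outside the final list. The final summits lay at 9.94 and 10.9 kb, in intron 3 of 5, with signals of 194 (rank 4438) and 220 (rank 3788). The first had 92.0 in replicate 1 and 99.8 in replicate 2, ranks 5240 and 4157. The second had 156 in replicate 1 and 58.0 in replicate 2, and it was within the 6091 strongest of replicate 1 only.

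The gene kibra, which encodes a WW-domain adaptor, carried the most final summits of the members. It is on 3R at 14697689 to 14724261, minus strand. Its TSS had a candidate of 87.0 at rank 11074, which was not found in replicate 1 and ranked 20715 in replicate 2. Intron 1 spans 20.1 kb and held 4 final summits, at 2.08, 8.79, 9.49 and 17.2 kb from the TSS, with signals of 252, 189, 199.9 and 169. A further final summit at 28.5 kb, beyond the 3′ end of the gene, had 152 and lay in an intron of the neighbouring gene Meltrin. The ratio of replicate 1 to replicate 2 signal was 1.47 to 2.00 at the 5 summits, above the median of 1.17 over all final peaks. The strongest had 156 and 106, and the weakest 85.6 and 42.8. Of 427 other protein-coding genes within 25% of its length, 35 (8.20%) had at least 5 final summits in the extended gene, and their median was 1. Candidates were also dense, with 20 in the extended gene against a median of 8 in these 427 genes.

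The windows at 3 of these upstream regulators are shown since they are the strongest final summit of Mer and of kibra, and the 1 final summit of a member that held the word ACGTAA, held by 10.2% of all final windows. They are plus-strand sequence of dm6, reaching 50 bp either way from the summit, trimmed where an untranslated region begins, at chrX:19693348-19693435, chr3R:14722126-14722226 and chr2L:441117-441217. Capitals mark ACGTAA on either strand.
Mer, summit at 102 bp: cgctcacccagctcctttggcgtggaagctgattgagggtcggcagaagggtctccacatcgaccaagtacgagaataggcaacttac
kibra, summit at 2.08 kb: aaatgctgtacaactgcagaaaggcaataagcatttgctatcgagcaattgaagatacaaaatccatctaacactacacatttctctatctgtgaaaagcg
ex, summit at 9.94 kb: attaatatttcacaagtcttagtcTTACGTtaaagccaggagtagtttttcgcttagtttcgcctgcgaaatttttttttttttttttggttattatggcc

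The windows differ in composition. The 101 bp around the Mer summit held 53.5% G+C, the highest of the members' 14 final summits, while the other 13 lay between 24.8% and 41.6%. The median of all final promoter summits was 33.7%, and that of final summits outside promoters 31.7%.

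**Figure D2:**
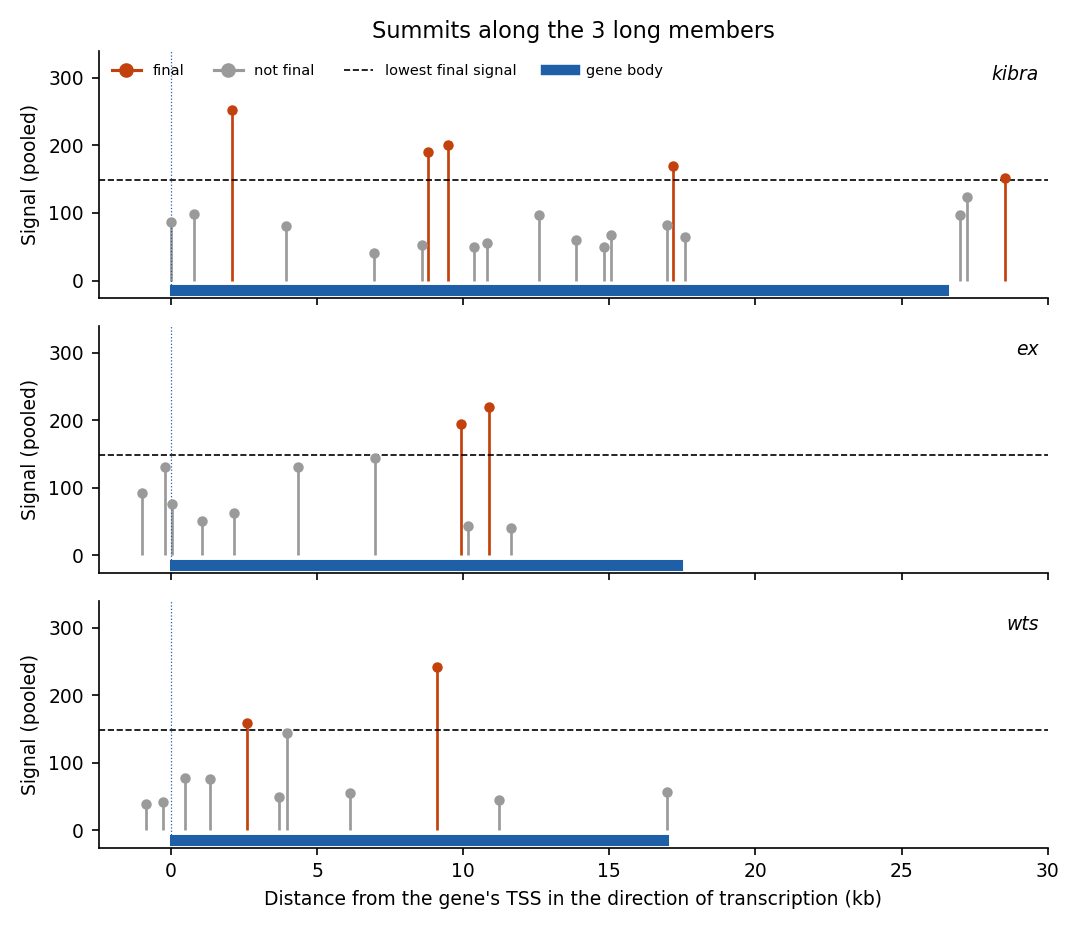
Signal (pooled list) of candidate summits along kibra, ex and wts against distance from the TSS in kb, with the gene body as a blue bar. Red final summits stand away from the TSS, at 2.08 kb and further in kibra, 9.94 and 10.9 kb in ex, and 2.62 and 9.12 kb in wts.

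In the kinase cassette, none of the members had a final summit at its own promoter. The NDR-family kinase gene wts (3R, 30789625 to 30806619, minus strand) resembled ex. At its TSS, candidates at 490 and -282 bp had 77.0 and 42.4, and the first was found in replicate 2 but not in replicate 1. The second was found in neither replicate list and lies at -216 bp from dj-1beta, a DJ-1 family gene read in the opposite direction. Final summits were intronic. One at 9.12 kb, in intron 2 of 7, had 241 at rank 3352, with 105 and 133 in replicates 1 and 2. Another at 2.62 kb, in intron 1, had 158 at rank 5669, with 113 in replicate 1 and 30.2 in replicate 2, where it ranked 18804. That ratio of 3.75 between replicates was exceeded by 0.643% of the 5603 final peaks found in both replicates.

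The scaffold gene sav (3R, 23058609 to 23061304, minus strand) was the member with no final summit in the extended gene. Its strongest candidate, at -48 bp, had 133 at rank 6870, with 61.0 and 65.6 in replicates 1 and 2. The same summit lies at -141 bp from Ublcp1, a phosphatase gene on the opposite strand. The signal equals 89.8% of the lowest final signal. The candidate at the TSS of mats, which encodes the Mob-family partner of Wts (3R, 22421161 to 22423302, plus strand), had 95.4 at rank 9972 and was not found in replicate 2. It is shared with Nop56, a small nucleolar ribonucleoprotein gene, whose TSS is closer (-41 bp against -52 bp). A candidate in an intron of mats had 138 at rank 6607.

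The strongest summit near mats belonged by position to another gene. It had 788 at rank 588, with 350 (rank 824) and 445 (rank 485) in replicates 1 and 2, and lay at -61 bp from the TSS of pinta, a retinoid-binding protein gene, 3.83 kb from the mats TSS. A further final summit at -261 bp from pinta had 198 in the pooled list, with 29.8 in replicate 1 and 113 in replicate 2. The 2 final summits assigned to mats by distance are therefore both at the pinta promoter.

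Windows at sav, wts and mats are shown for contrast, as a divergent promoter just under the final threshold, the strongest intronic summit of the kinase genes, and the neighbour's promoter. They lie at chr3R:23061305-23061402, chr3R:30797454-30797554 and chr3R:22424940-22425040, on the plus strand of dm6, with the same width and trimming. Capitals mark GGAATG on either strand, the core of the site known for Scalloped. Of the 58 candidate windows at the members, only that of sav at -48 bp held it, and this summit was not final.
sav, summit at -48 bp: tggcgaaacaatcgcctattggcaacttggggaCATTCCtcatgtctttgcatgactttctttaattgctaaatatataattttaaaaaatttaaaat
wts, summit at 9.12 kb: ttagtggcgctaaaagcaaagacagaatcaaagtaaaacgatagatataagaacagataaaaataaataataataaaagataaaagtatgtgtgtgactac
mats, summit at the pinta promoter: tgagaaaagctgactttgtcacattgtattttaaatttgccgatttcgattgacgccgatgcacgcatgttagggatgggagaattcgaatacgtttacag

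Words were searched on both strands in the 101 bp around each summit. ACGTAA was in 1 of the members' 14 final windows, against 10.2% of all 6091. GGAATG was in 0 of 14, against 3.33%, and TATCGATA, the DNA replication-related element, in 0 of 14, against 2.04%. With 14 windows these counts are a description only. The promoter summits of Mer and yki held none of the 3 words.

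The kinase gene hpo (2R, 19493996 to 19496856, minus strand) had a candidate at 15 bp from its TSS with a signal of 118 at rank 7856. It had 75.5 (rank 6528) in replicate 1 and 42.6 (rank 12381) in replicate 2, outside the 6091 strongest of both. The final summit within 2 kb of the gene had 254 at rank 3107, and 102 and 138 in the replicates. It lay 4.78 kb from the hpo TSS, at -6 bp from Rep, the Rab escort protein gene, and at -235 bp from Oseg6, an intraflagellar transport gene.

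The co-activator gene yki (2R, 24065975 to 24068485, minus strand) had the strongest promoter summit of the members, and it is shared. The pooled signal was 691 at rank 724, with 371 (rank 745) in replicate 1 and 323 (rank 774) in replicate 2. The replicates placed it within 3 and 18 bp of the pooled summit. It lies at -339 bp from the yki TSS and at 67 bp from that of Gpat4, a glycerolipid synthesis gene read in the opposite direction. Of 7055 genes with a promoter candidate, 91.0% had a weaker strongest summit than yki, and 72.9% than Mer. By position the peak is closer to Gpat4, and when each summit counted only for the nearest TSS, Mer alone of the members kept a final promoter summit. The peak lists cannot tell which of the 2 genes it belongs to. The promoters next in signal to yki were those of Rab39 (rank 723, shared with Pdp) and E(spl)m7-HLH (rank 725). Those next to Mer were CG9747 (rank 2619) and CG1662 (rank 2622, shared with Ype). This order is one of signal alone.

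The members' final summits differed in how they ranked in the replicates. All 14 had a summit within 100 bp in each replicate, against 5603 of all 6091 final peaks, as follows in part from how the final list was made. Within 50 bp, 14 were found in replicate 1 and 9 in replicate 2. The share of all final peaks within 50 bp was not counted, so nothing is read from these 2 counts about the members. Of the 14, 13 were among the 6091 strongest of replicate 1 and 8 among those of replicate 2, against 87.1% and 81.1% of all final peaks. The ratio of replicate 1 to replicate 2 signal was 1.15 at yki and 1.07 at Mer. It reached 2.69 at the ex summit of 10.9 kb, above which lay 2.21% of final peaks, and was 0.264 at the weaker pinta summit, below which lay 0.4997%. At 5 of the 14, among them the wts summit at 2.62 kb and 3 of kibra, the matched replicate 2 summit lay more than 50 bp away. The part of this offset in the ratios was not tested.

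**Figure D3:**
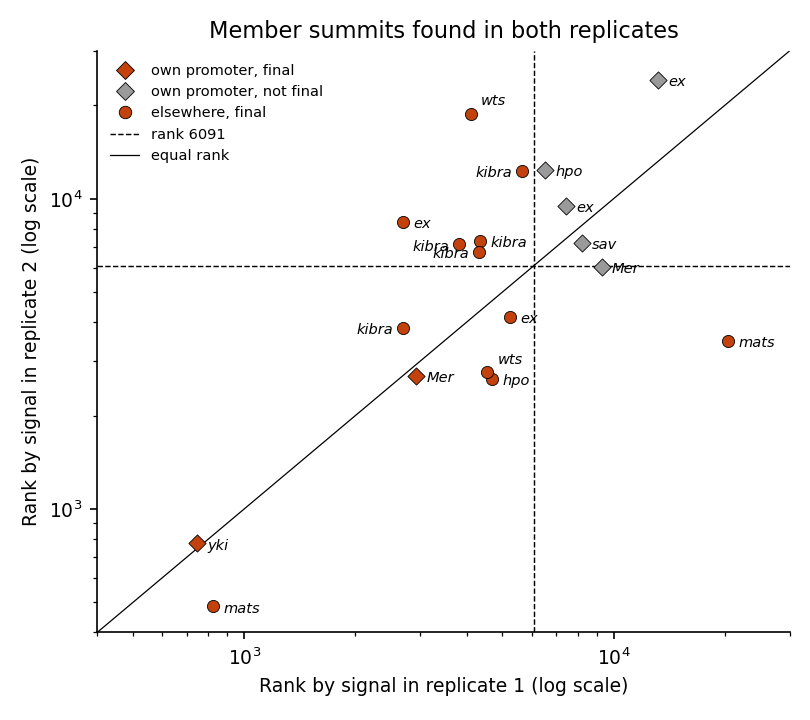
Rank by signal in replicate 1 against rank in replicate 2 (log axes, low ranks strong) for member summits that were final or at a member's promoter and found in both replicates. The points of yki (745 and 774) and Mer (2927 and 2684) lie by the diagonal, and 4 of 5 kibra summits are within rank 6091 in replicate 1 only.

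Some summits lay close to the final threshold of 148. The kibra summit beyond its 3′ end (152, rank 5910) and the wts summit at 2.62 kb (158, rank 5669) were just inside. An intronic summit of ex (144.0, rank 6276), an intronic one of wts (143.9, rank 6284) and one at the Gpat4 promoter beside yki (142, rank 6360) were just outside.

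Over their merged extended length of 107 kb, the members held 1.31 final summits per 10 kb, against 0.547 for all protein-coding genes treated the same way and 0.455 over the 6 arms. Candidates showed a similar ratio, with 5.42 per 10 kb against 2.47 for protein-coding genes. The share of candidates that were final was thus alike, 24.1% (14 of 58) at the members and 22.2% at all protein-coding genes. For wts and ex, 2 final summits each compare with a median of 1 in 616 and 615 other genes within 25% of their length. Of those genes, 36.7% and 36.4% had at least 2.

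Other genes of the pathway were read from a list of 69, of which 68 are protein-coding and 1 is the microRNA gene mir-ban. Of the 69, 57 had a promoter candidate and 25 a final promoter summit. Among the 68 protein-coding genes, 24 (35.3%) had a final promoter summit, against 25.2% of all such genes. Among the 56 with a candidate, 42.9% did, against 49.8%. These genes are long, with a median of 12.3 kb against 2.17 kb for all protein-coding genes, and the 2 shares lie on opposite sides of the background.

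Counts by role are to be read beside 25.2% of all protein-coding genes and 49.8% of those with a candidate. Of 9 genes of the cadherin branch, 5 had a candidate and 1 a final promoter summit. It was that of app, a palmitoyltransferase gene that acts on Fat signalling, with 500.2 at rank 1206, and it is shared with CG32100. Of 14 apical and junctional regulators, 12 had a candidate and 4 a final promoter summit. The strongest were the ZO-1 homologue gene pyd (408), the kinase gene aPKC (377) and the scaffold gene sdt (234). The aPKC summit is shared with ckn. Of 18 regulators of the kinase cassette, 17 had a candidate and 9 a final promoter summit, near the 49.8% of all genes with a candidate, led by mts (861, rank 512), the catalytic subunit of protein phosphatase 2A. It was followed by Mob4 (588), of the same phosphatase complex STRIPAK, and by RtGEF (300.1), an exchange factor gene. The mts summit is also within 500 bp of a TSS of Rack1, that of Mob4 of one of Rab2, and that of RtGEF of one of La.

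Of 15 binding partners and cofactors of Yki, 13 had a candidate and 7 a final promoter summit. That share of candidates is near the 49.8% over all genes with a candidate. Among the 7 were both 14-3-3 genes, whose proteins hold phosphorylated Yki in the cytoplasm. The 14-3-3epsilon summit had 159 at rank 5604, ranked 12533 in replicate 2 and is shared with CG7156. The SWI/SNF ATPase gene brm had 754 at rank 629, the ankyrin-repeat cofactor gene mask 419 and 14-3-3zeta 328. All 3 summits are shared, with Arl1, Spase22-23 and RpLP0-like in that order, and that of 14-3-3zeta was not found in replicate 2 within 100 bp. The Scalloped gene sd itself had a candidate of 97.1, not final. Of 13 targets, 10 had a candidate and 4 a final promoter summit. E2f1, a cell cycle transcription factor gene, had 6893 at rank 47, with 2678 (rank 61) and 4271 (rank 36) in replicates 1 and 2, the highest of the 69. The E2f1 summit is shared with the noncoding gene asRNA:CR46055. The glypican gene dlp had 452 at a summit shared with RecQ5. The summit of 206 counted for mir-ban lies at 442 bp from the start of the annotated precursor, which need not be the transcript's start. The targets Diap1, Myc and wg had promoter candidates of 111, 102 and 99.9, all below the final threshold, and CycE had none. The 14-3-3epsilon, sd, Diap1, Myc, wg and CycE values were chosen for mention after they were seen.

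**Figure D4:**
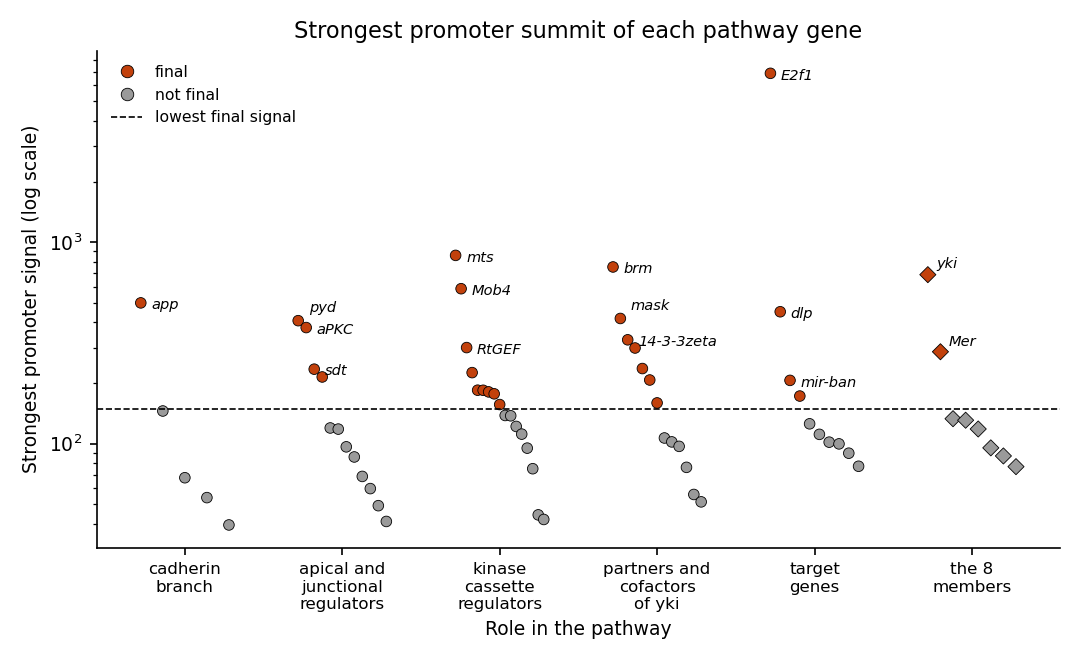
Strongest promoter summit (pooled signal, log scale) of each pathway gene with a promoter candidate, by role, with the 8 members as diamonds. Red points are final; E2f1 (6893) stands above the others, and 2 of the 8 members, yki (691) and Mer (286), pass the dashed line at 148.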

How the data were processed

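Per the manifests deposited with the samples, the authors called candidate regions on each replicate and on the pooled replicates against 1 control alignment, and made the final list from all 3 (assembly dm6, per the labels). Which aligner, caller and thresholds were applied is not given in the sources used here. Deposited columns give per peak a signal value and a summit offset, both used, and a −log10 q value, not used for ranking. The authors' p column is constant at -1.

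Summits and TSSs were joined with Python 3.11.15, numpy 2.4.6 and pandas 2.3.3, using Ensembl release 115 without transposable elements. Figures used matplotlib 3.10.9. A replicate summit within 100 bp matched a pooled one. Introns are gaps between merged exons. Sequence came from RefSeq's copy of the same assembly. All 76 pathway genes checked with it begin their coding sequence with ATG. The join of summits to TSSs was tested on simulated summits. The joins to extended genes and between lists were not tested in this way.

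Members, lists and words were chosen with earlier results of these data known. Named genes are the members, genes sharing their final promoter summits, the 3 strongest final promoters per role, and the next in signal to yki and Mer. Rep, Oseg6, pinta, Nop56, Ublcp1, dj-1beta, Meltrin, Rack1, Rab2, La, CG32100, ckn, Arl1, Spase22-23, RpLP0-like, RecQ5, CG7156, asRNA:CR46055, Pdp and Ype were added as neighbours after values were seen. With 1 group, no test was run. Alternatives changed windows, extension, list, replicate and summit distance.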

Additional observations from a re-analysis of the deposited data

How the results depend on the processing

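Without a replicate there is no final list, so the 6091 strongest summits of the other replicate's own list were used. For candidates its whole list was used. Final promoter summits were counted for 2 members with a window of 500 or 1000 bp and in the upper 3045 final peaks. Without replicate 1 or 2 the count was also 2. All of these were yki and Mer. The count was 1, Mer, with a window of 250 bp and with each summit given to its nearest TSS. Without replicate 1, and likewise without replicate 2, the same 7 members had such a summit in the extended gene. Final summits were found for 4 members (wts, ex, Mer and kibra) in the gene body alone. With an extension of 1 kb they were found for 5 (these and yki), and with 5 kb for all 8. In the upper 3045 peaks, with the extension of 2 kb, they were found for 3 (mats, yki and Mer). The 14 final summits became 9 in the gene body alone, 10 with 1 kb, 17 with 5 kb and 3 in the upper 3045. The extended genes held 13 of the 6091 strongest summits of replicate 2, and 14 of those of replicate 1. These are not all the same summits. Of the 14 final ones, 8 were among the 6091 strongest of replicate 2 and 13 among those of replicate 1. Of the 69 other pathway genes, 12 had a final promoter summit in the upper 3045 peaks, a list shorter by construction. Without replicate 1 and 2, 31 and 25 had a promoter summit among the 6091 strongest of the other replicate. Both counts include genes with no final promoter summit. Promoter candidates were found for 8 members without replicate 1 and for 6, all except wts and kibra, without replicate 2. These need not be the pooled candidates. That of mats had no replicate 2 summit within 100 bp, so mats was counted there through another summit. Of 33 alternative counts, 26 stayed within 1.5 times the main count and 7 moved. Depth is unknown, so regions below the candidate lists were not read as unbound. No paired analysis was possible because the replicates form 1 group.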

Other observations

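Among the other pathway genes, those with the most final summits in the gene extended by 2 kb were long, and no comparison with genes of like length was made for them. E2f1 (40.6 kb) held 8 and dlp (39.0 kb) 7. The cell adhesion gene ed (84.4 kb), the polarity gene scrib (67.7 kb) and pyd (105 kb) held 6 each. Of these, ed had no promoter candidate and scrib a promoter candidate of 120 that was not final. The wing selector gene vg, the Fat-pathway kinase gene fj and the ligand genes upd1 and upd2 had neither a promoter candidate nor a final summit in the extended gene. The same held for Schip1, listed among the apical and junctional regulators. These genes were chosen after their values were seen.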
